A study of Mus musculus with 2 samples.

Results

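Mir770, Mir673, Mir493, Mir341, Mir1188 and Mir370 are 6 miRNA genes of the Dlk1-Dio3 imprinted region of mouse chromosome 12, chosen by their position near the noncoding RNA genes Meg3 and Rian. They lie outside the set named the Rtl1 antisense group and outside the Mirg cluster, and they were 6 of the 2202 miRNA genes counted. Mir1906-1 and Gm23912, annotated within Meg3 and within Rian but not among the listed members, had 0 counts in both libraries. MicroRNA sequencing had been performed on total RNA of the adrenal gland of female mice of the strain B6CASTF1/J, aged 2 months, with library inserts selected for short RNA. The labels gave 1 group with 2 biological replicates, untreated as far as they say, whose tissue labels number different females under 1 donor label. With neither a second group nor a second tissue, the comparisons were the levels of the 6 genes within the gland, their place among neighbouring genes, and the spread between the 2 libraries.

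In the Dlk1-Dio3 region the noncoding transcripts Meg3, Rian and Mirg, with the small RNAs they carry, are expressed from the maternal chromosome, while Dlk1, Rtl1 and Dio3 are expressed from the paternal one. A miRNA is cut from a hairpin in a longer transcript, and either arm of the hairpin can become the mature miRNA, which recognises targets mainly through the seed, bases 2 to 8 from its 5′ end. The adrenal gland combines a cortex that makes steroid hormones and a medulla that makes catecholamines. B6CASTF1/J mice are first-generation hybrids, and the parent of origin of the reads was not measured here.

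All 6 genes lie on the plus strand (mm10), and the annotation (GENCODE M21) placed only 4 of them inside a transcript of Meg3 or Rian. Mir770 (ENSMUSG00000076451.1, chromosome 12 from 109563692 to 109563785) lies within Meg3, where 4 of 11 annotated transcripts span it and 1 of these has it in an exon. Mir673 (ENSMUSG00000076316.1, 109571990 to 109572080) starts 263 bases after the annotated end of Meg3. Mir493 (ENSMUSG00000077025.2, 109580233 to 109580315) starts 8506 bases after that end, and neither overlaps an annotated transcript on its strand, so the name of a hosted miRNA rests on proximity for this pair. Mir341 (ENSMUSG00000070101.1, 109611500 to 109611595), Mir1188 (ENSMUSG00000080406.1, 109611822 to 109611941) and Mir370 (ENSMUSG00000065433.1, 109618258 to 109618336) lie in introns of 2 of the 20 annotated Rian transcripts. Mir341 and Mir1188 are separated by 226 bases, and Mir370 follows 6316 bases further on. No miRNA gene is annotated on the strand opposite to any of the 6.

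Counts per hairpin do not separate its arms, whose annotated mature sequences are listed here. They are given from RefSeq (GRCm38.p6), which matched all 6 genes, from 5′ to 3′ with the seed in capitals.
miR-770-5p: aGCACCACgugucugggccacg
miR-770-3p: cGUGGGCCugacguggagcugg
miR-673-5p: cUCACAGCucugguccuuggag
miR-673-3p: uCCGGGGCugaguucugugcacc
miR-493-5p: uUGUACAUgguaggcuuuc
miR-493-3p: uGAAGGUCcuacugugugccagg
miR-341-5p: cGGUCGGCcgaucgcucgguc
miR-341-3p: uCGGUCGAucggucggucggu
miR-1188-5p: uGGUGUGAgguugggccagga
miR-1188-3p: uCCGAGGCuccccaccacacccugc
miR-370-5p: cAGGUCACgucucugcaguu
miR-370-3p: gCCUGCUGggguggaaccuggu

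These 12 arms carry 12 different seeds, so the 6 genes form no seed family. For 10 of the arms no other mouse gene among the RefSeq miRNAs had the seed. The seed of miR-370-5p is shared by miR-1193-3p of Mir1193, a gene of the Mirg cluster in the same region, which was at 54.9 and 63.6 counts per 1000000 gene counts (CPM) in replicates 1 and 2. The seed of miR-673-5p is shared by miR-6985-3p of Mir6985, which had 6 and 2 counts. Counting was per hairpin, so which arm the reads came from was not measured.

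The hairpin of Mir341 differs from the others by a short repeat and is shown for it, as is that of Mir770, the most GC-rich of the 6, with the mature arms in capitals.
Mir341 hairpin: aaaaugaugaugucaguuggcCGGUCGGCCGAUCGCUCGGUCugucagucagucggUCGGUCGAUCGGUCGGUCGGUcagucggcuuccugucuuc
Mir770 hairpin: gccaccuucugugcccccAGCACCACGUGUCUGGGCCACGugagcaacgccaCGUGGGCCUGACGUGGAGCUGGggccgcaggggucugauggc

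Searched on the transcribed strand with overlapping matches, the letters CGGUC occur 7 times in the Mir341 hairpin. They occur in 55 of the 2202 hairpins (2.50%), at most 3 times in any other. The Mir341 hairpin holds 12 CG dinucleotides, and 41 hairpins hold more. No member shares a stretch of 20 bases with another annotated hairpin. The mature sequences had no exact match in other annotated transcripts except for Mir770, whose arms lie in the Meg3 transcript that contains it. Whether the arms match elsewhere in the genome was not analysed here.

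The hairpins of the 6 genes are rich in G and C. Mir770 holds 70.2% G and C, more than 97.0% of all hairpins, followed by Mir673 with 61.5%, Mir1188 with 60.8%, Mir341 with 59.4%, Mir370 with 55.7% and Mir493 with 53.0%. All 6 lie above the median of all hairpins (50.8%), as do 9 of 11 in the Rtl1 antisense group but 10 of 38 in the Mirg cluster, whose median is 43.5%. Predicted folding energy was -61.9 kcal/mol per 100 bases for Mir770, which is lower, and so more stable, than in 97.5% of hairpins. Mir493 (-54.2 kcal/mol per 100 bases) and Mir370 (-52.3 kcal/mol per 100 bases) followed. Mir1188 (-35.2 kcal/mol per 100 bases) was the only member less stable than the median of all hairpins, which was -36.9 kcal/mol per 100 bases. More stable than this median were also 8 of 11 hairpins in the Rtl1 antisense group and 32 of 38 in the Mirg cluster. These features describe the sequences, and no test was made of them.

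**Figure D1:**
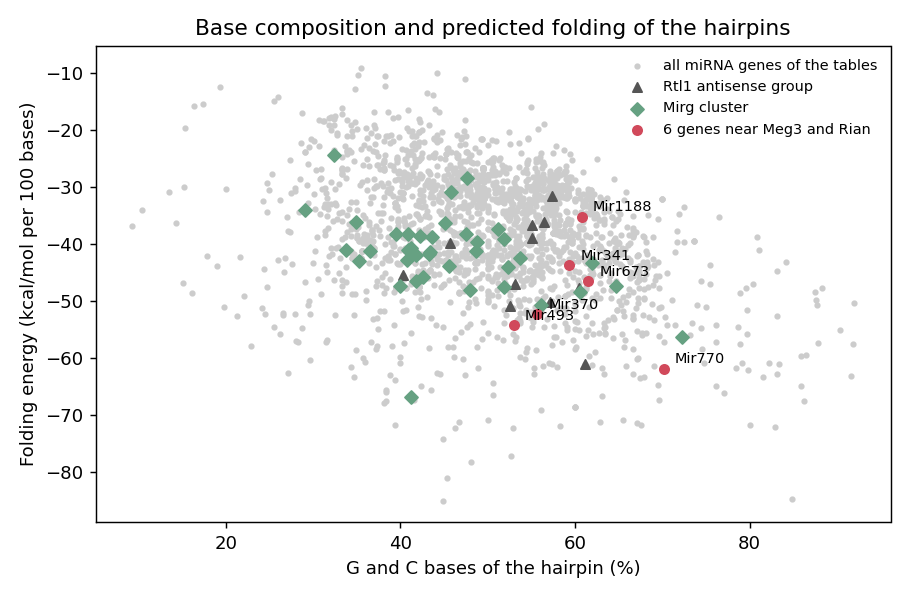
Predicted folding energy (kcal/mol per 100 bases, vertical axis) against the percentage of G and C bases (horizontal axis) for the hairpins of all 2202 miRNA genes, with the 6 genes near Meg3 and Rian, the Rtl1 antisense group and the Mirg cluster coloured. The 6 genes sit between 53.0% and 70.2% G and C, and Mir770 is both the most GC-rich and the most stable per base of the 6.

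Counts assigned to miRNA genes on the gene's strand totalled 2839732 in replicate 1 and 2280028 in replicate 2, so that 1 count was worth 0.352 and 0.439 CPM. Reads aligned to several places numbered 94.2 and 96.2 per 100 gene counts, were not assigned to a gene, and are in none of the values below. Markers of the labelled tissue were present: the neuroendocrine miRNA Mir375 was at 39421 and 37780 CPM, and all 9 genes of a list from steroid-producing cells were detected, led by Mir21a (33612 and 13012 CPM). Marker levels differed between the libraries, and the list from steroid-producing cells summed to 44497 CPM in replicate 1 and 27770 CPM in replicate 2. Mir21a fell by more than this sum did, so the rest of the list together was higher in replicate 2. The 10 skeletal and heart muscle genes summed to 953 CPM in replicate 1 and 6.58 CPM in replicate 2, with Mir133a-1, Mir133a-2 and Mir133b at 0 in both. The 3 erythroid genes, led by Mir451a, summed to 643 and 14488 CPM. Mir451a and Mir144 carried that sum, while the third, Mir486, was at 65.9 and 58.3 CPM.

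The first question was how abundant the 6 genes are in the gland. All 6 were detected, with 10 or more counts in both libraries, against 15.5% of all miRNA genes. With Mir1906-1 and Gm23912, which also lie within Meg3 or Rian, it was 6 of 8. Most genes of the neighbouring sets were detected too, 10 of 11 in the Rtl1 antisense group and 33 of 38 in the Mirg cluster. Detection was thus not particular to the 6 genes. Mir341 and Mir770 were high, Mir673 was intermediate, and Mir370, Mir1188 and Mir493 were low. They held 0.177% of all gene counts in replicate 1, where the 95% Clopper-Pearson bounds were 0.172 and 0.182. In replicate 2 they held 0.247%, with bounds of 0.241 and 0.253, for a mean of 0.212% ± 0.0494 (SD, n = 2). Intervals cover counting error only. Levels are compared per hairpin gene, since each read stands for a short RNA and not for a length of transcript.

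Mir770, the miRNA gene inside Meg3, had 1842 counts in replicate 1 and 1558 in replicate 2, or 649 and 683 CPM (mean 666 ± 24.5, SD, n = 2). It was the most even of the abundant members, and it ranked 103 and 101 among the 2202 genes. Genes nearest to it in level over the 2 libraries, by Euclidean distance of log2(CPM + 1), were Mir181c (distance 0.16) and Mir342 (0.17), both outside the region.

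Mir673, just beyond the end of Meg3, had 885 and 1134 counts, or 312 and 497 CPM (mean 405 ± 131). It was higher in replicate 2, and its level was below that of Mir770 in both libraries. Its nearest genes in level were Mir188 (distance 0.12) on the X chromosome and Snord43 (0.17), a snoRNA symbol that the annotation lists as a miRNA gene. Mir493, described elsewhere as a suppressor of metastasis, had 102 and 44 counts, or 35.9 and 19.3 CPM (mean 27.6 ± 11.8). It was the lowest member on average, and its level in replicate 2 was the lowest of all 12 values. Nearest to it in level were Mir1247 (distance 0.22; 93 and 50 counts) and Mir138-2 (0.26). Mir1247 lies at the far end of the same imprinted domain, on the minus strand (chromosome 12 from 110278048 to 110278129), 938 bases before the start of Dio3.

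Among the Rian genes, Mir341 had 1855 and 2595 counts, or 653 and 1138 CPM (mean 896 ± 343). It had the highest mean of the 6 and the largest SD, at ranks 101 and 78. In replicate 1 it stood level with Mir770, and in replicate 2 it stood above it. The genes nearest in level were Mir16-1 (distance 0.19) and Mir532 (0.20).

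Mir1188, its neighbour, had 95 and 73 counts, or 33.5 and 32.0 CPM (mean 32.7 ± 1.02). The libraries were close together, and Mir192 and Mir92b lay nearest (both at distance 0.11). Mir370, which has been described as a regulator of lipid metabolism in liver, had 251 and 226 counts, or 88.4 and 99.1 CPM (mean 93.8 ± 7.59), with Mir467e (distance 0.13) and Mir3072 (0.16) of the Mirg cluster nearest.

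**Figure D2:**
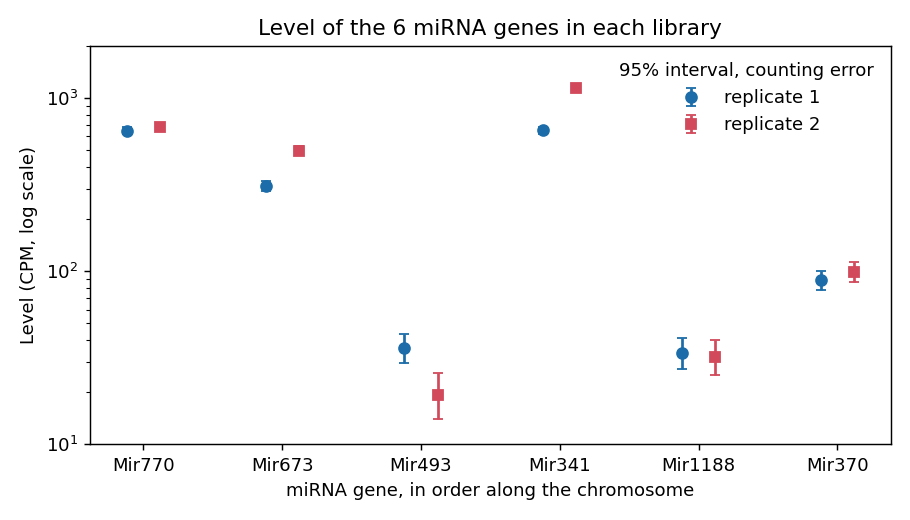
Level of each of the 6 genes (CPM, log scale) in replicate 1 (circles) and replicate 2 (squares), in order along the chromosome, with 95% intervals for counting error. Mir770, Mir673 and Mir341 lie between 312 and 1138 CPM and the other members between 19.3 and 99.1 CPM, and the intervals of the libraries are apart for Mir673, Mir493 and Mir341.

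In the order of the means, Mir341 led Mir770 by 1.34-fold, which was within the SDs (1.01-fold in replicate 1 and 1.67-fold in replicate 2). Mir770 exceeded Mir673 by 2.08-fold and 1.37-fold, Mir673 exceeded Mir370 by 3.53-fold and 5.02-fold, and Mir370 exceeded Mir1188 by 2.64-fold and 3.10-fold. The difference of the means exceeded the sum of the SDs for these 3 pairs. Mir1188 and Mir493 exchanged places between the libraries and could not be ranked. Dividing by hairpin length exchanged only this last pair.

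Genes close together on the chromosome had unlike levels. For each count of Mir1188, Mir341 had 19.5 (95% interval 15.9 to 24.3) in replicate 1. In replicate 2 it had 35.5 (28.2 to 45.5), with only 226 bases between the hairpins. The ratio of Mir341 to Mir370, in introns of the same transcripts, was 7.39 (6.47 to 8.47) and 11.5 (10.02 to 13.2). In contrast, the ratio of Mir370 to Mir1188 was 2.64 (2.08 to 3.38) and 3.10 (2.37 to 4.09), with intervals that overlap. Between Meg3 and Rtl1, Mir673 had 8.68 counts for each count of Mir493 in replicate 1 (7.06 to 10.8) and 25.8 in replicate 2 (19.1 to 35.7). The ratio of Mir770 to Mir673 was 2.08 (1.92 to 2.26) and 1.37 (1.27 to 1.48).

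The 6 genes held a small part of the counts of their region. The region holds 59 annotated miRNA genes on the plus strand from Meg3 to the end of Mirg: these 6, the 11 of the Rtl1 antisense group, 38 of the Mirg cluster and 4 in none of these sets. The 6 genes held 3.81% (95% interval 3.70 to 3.91) of the region's counts in replicate 1, and 4.12% (4.01 to 4.22) in replicate 2. Reads aligned to several places are missing from these shares. Some genes of both neighbouring sets, such as Mir411 and Mir3070a, share a stretch of 20 bases with another hairpin, and no member does. How far this changes the shares was not tested. The Rtl1 antisense group held 44.9% and 54.0%, led by Mir127 (13998 and 24356 CPM), Mir433 (3358 and 4047 CPM) and Mir337 (1080 and 1639 CPM). Mir127 and Mir433 lie opposite to annotated Rtl1, while Mir337 lies outside it, so the name of this group rests partly on proximity. The Mirg cluster held 51.3% and 41.9%, led by Mir379 (4902 and 5359 CPM), Mir541 (3524 and 5914 CPM) and Mir411 (4261 and 4482 CPM). Mir541 lies within annotated Mirg, while Mir379 and Mir411 lie before its start, so this name also rests partly on proximity.

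By mean level Mir341 was gene 10 of the 59, Mir770 gene 13, Mir673 gene 17, Mir370 gene 30, Mir1188 gene 43 and Mir493 gene 45. The members were thus spread from the upper to the lower part of the region's range. Their median mean level was 249 CPM, with 292 CPM in the Rtl1 antisense group and 107 CPM in the Mirg cluster. The 3 Rian genes together held 43.8% of the counts of the 6 in replicate 1 and 51.4% in replicate 2, and Mir770 alone held 36.6% and 27.7%.

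**Figure D3:**
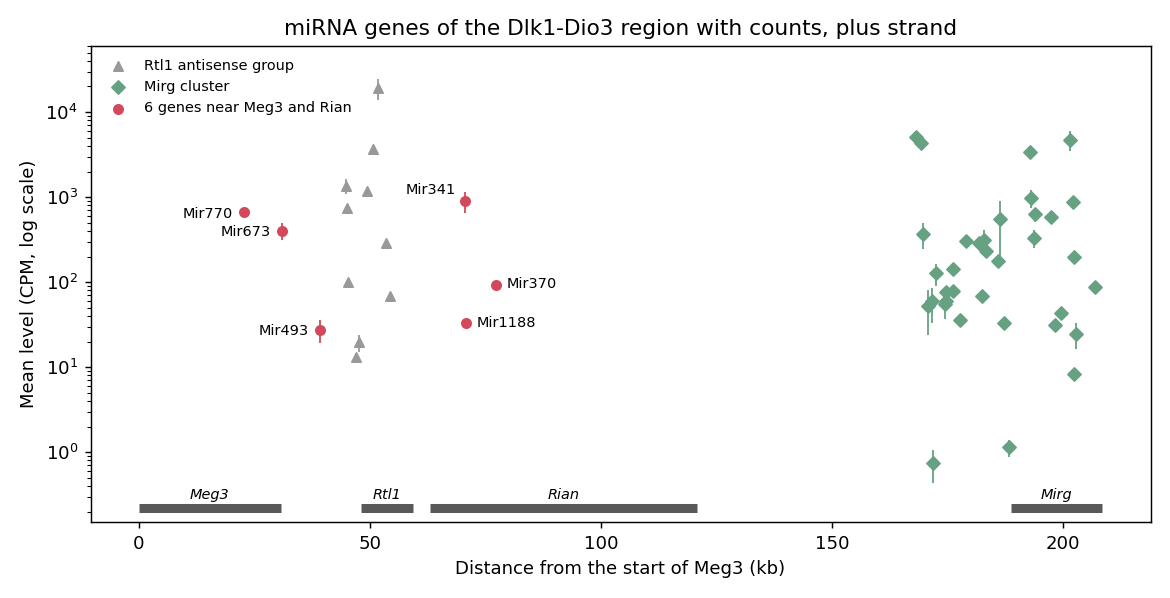
Mean level (CPM, log scale) of the 51 miRNA genes with counts on the plus strand of the region against distance from the start of Meg3 in kb. Vertical lines join the 2 libraries, bars at the bottom mark Meg3, Rtl1 (on the opposite strand), Rian and Mirg, and the 6 genes lie on both sides of the Rtl1 antisense group, whose Mir127 is the highest point.

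The last question was whether the 6 genes differed between the 2 libraries. For this an exact binomial test (two-sided) set the counts of a gene against the library totals, over the 369 genes whose mean count was 10 or more, with Benjamini-Hochberg adjustment over all of them. It sets 1 library against the other, and allows for the error of counting alone. None of the 6 reached an adjusted p under 0.05 together with a difference of at least 2-fold, against 18.7% of all tested genes. At an adjusted p under 0.05 alone 3 of 6 passed, 2 higher in replicate 2 and 1 higher in replicate 1, against 62.6% of all tested genes (35.8% and 26.8%). An unadjusted p under 0.05 was reached by 3 of 6 members and by 238 of all 369 tested genes.

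Mir341 was 1.74-fold higher in replicate 2 (95% interval 1.64 to 1.85, exact binomial test, adjusted p = 5.60e-75). Mir673 was 1.60-fold higher in replicate 2 (1.46 to 1.74, adjusted p = 5.75e-25), and Mir493 was 1.86-fold higher in replicate 1 (1.29 to 2.71, adjusted p = 0.000925). The other members did not pass. For Mir770 the ratio of replicate 2 to replicate 1 was 1.05 (0.984 to 1.13), for Mir370 1.12 (0.933 to 1.35) and for Mir1188 0.957 (0.696 to 1.31), with adjusted p of 0.191, 0.289 and 0.860 in the same test. With 73 to 251 counts, the intervals for Mir370 and Mir1188 are wide.

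The members differed about as much as other genes did. The median size of the log2 ratio was 0.42 over the 6 genes and 0.45 over all 369, and the signed median was 0.12 against 0.07. Among the tested members of the neighbouring sets, an adjusted p under 0.05 was reached by 6 of 10 in the Rtl1 antisense group, 5 with more in replicate 2 and 1 with more in replicate 1, with a median log2 ratio of 0.16. In the Mirg cluster 10 of 33 were higher in replicate 2 and 14 in replicate 1, with a median of -0.09. The summed muscle markers were higher in replicate 1, as was the sum over the steroid-producing cell list, through Mir21a. Without Mir21a, the rest of that list together was higher in replicate 2. The summed erythroid markers, through Mir451a and Mir144, were higher in replicate 2. Without the muscle and erythroid sets in the library totals the ratios were 1.77 for Mir341, 1.62 for Mir673 and 0.544 for Mir493. The part of RNA from those cells in the members' own counts was not tested, and in whole glands fewer cells of a type and less RNA per cell cannot be told apart.

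**Figure D4:**
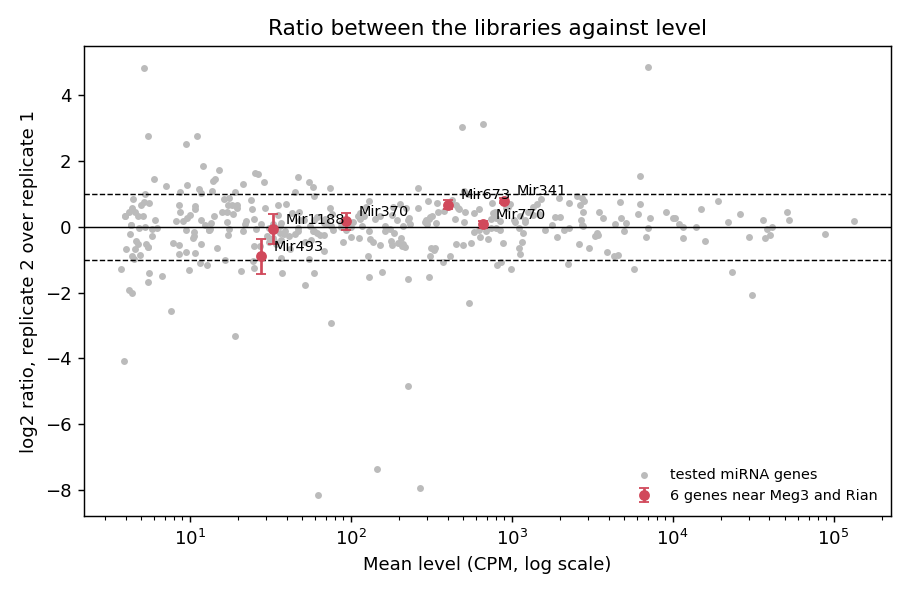
The log2 ratio of replicate 2 over replicate 1 (vertical axis) against mean level (CPM, log scale) for 368 tested genes with counts in both libraries (grey) and the 6 genes near Meg3 and Rian (red, with 95% intervals for counting error). Dashed lines mark 2-fold differences, and all 6 ratios lie between them, from -0.90 for Mir493 to 0.80 for Mir341.

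The region as a whole took 4.65% of all gene counts in replicate 1 and 5.997% in replicate 2, so the ratios look different within it. With the region's counts as library size, a setting chosen after the data were seen, Mir493 was 2.40-fold higher in replicate 1 (exact binomial test, adjusted p = 1.25e-06) and passed the 2-fold rule. In the same setting the ratio of replicate 2 to replicate 1 was 0.817 for Mir770 (adjusted p = 1.25e-08) and 0.870 for Mir370 (adjusted p = 0.172), both on the other side of 1 from the ratios on library totals. Mir341 (1.35) and Mir673 (1.24) were still higher in replicate 2, and Mir1188 was at 0.743. This scaling lowered the median log2 ratio of all tested genes from 0.07 to -0.29, and Mir127 alone held 30.1% and 40.6% of the region's counts in replicates 1 and 2.

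Strand made no difference to the members' counts. None had a read on the opposite strand in either library, and finding 0 counts is compatible with as many as 3, which is 1.06 CPM in replicate 1 and 1.32 CPM in replicate 2. The unstranded column held the same count as the gene's own strand for all 6.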

How the data were processed

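The authors deposited read counts per miRNA gene, not normalized, in a table for each of 2 samples. Per the file headers and the notes deposited with the tables, reads were placed on mm10 and counted over GENCODE M21. Which aligner and counter were used is not given in the sources used here. Every table held 3 columns of counts, and of the stranded ones that with the larger total was used. Rows that name no gene were left out of library totals. On the gene's strand these rows held 29.8% (unmapped), 28.8% (aligned to several places), 10.8% (outside the counted genes) and 8.62e-05% (in more than 1 gene) of all reads in replicate 1, and 39.7%, 25.3%, 8.60% and 0% in replicate 2.

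Counts were scaled to 1000000 per library (CPM). Library differences were tested with an exact binomial test (scipy 1.17.1). It was tried on simulated counts that held counting error alone, without variation between samples. How it performs with such variation was not tested. With 2 samples no exact test over samples can go below p = 0.5, so none was run. Nothing in the labels beyond the tissue and replicate numbers says that the samples are separate animals, so SDs measure the spread between samples. Folding energies came from RNAfold 2.7.2 on GENCODE hairpin sequences, which were found for all 2202 genes. TMM (edgeR 4.0.16) and median-of-ratios (DESeq2 1.42.0) scaling were alternatives.

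The members and lists were chosen with earlier results of these data known. Named were the members, the 2 genes nearest to each in level, the top 3 genes of the neighbouring sets, up to 2 genes sharing a seed with an arm, and the top marker of each cell type list. Muscle and erythroid markers named singly, Mir1906-1, Mir1906-2 and Gm23912 fall outside this rule and were named after their values were seen. Besides Mir375 and Mir21a, the top markers were Mir126a (endothelial, 43203 and 59463 CPM), Mir143 (smooth muscle and fibroblast, 21039 and 23108 CPM), Mir122 (liver, 3721 and 2358 CPM), Mir150 (white blood cells, 659.6 and 467 CPM), Mir128-1 (neuronal, 35.2 and 14.9 CPM), Mir206 (muscle, 534 and 2.19 CPM) and Mir451a (erythroid, 469 and 13557 CPM). Of the 8 neuronal genes only 1, Mir128-1, was detected, and 6, the Mir124a and Mir9 genes, had no count in either library.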

Additional observations from a re-analysis of the deposited data

How the results depend on the processing

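All 6 members were detected under every setting run. In the settings that kept both replicates, the summed level (2120 CPM) and the share of gene counts (0.212%) moved by less than 1 SD. Leaving out 1 replicate gave 1771 to 2469 CPM, 0.177% to 0.247% and 6 detected members. With 2 samples, leaving out 1 always moves a mean by less than 1 SD, so this shift is no measure of stability. Mir341 and Mir673 were higher in replicate 2 and Mir493 in replicate 1 in every setting in which they were tested. At a mean count of at least 100, Mir493 and Mir1188 were not tested, and 33 of 234 genes passed the 2-fold rule, against 69 of 369. For Mir770, whose ratio did not pass, TMM scaling gave 0.987. Scaling to the region gave 0.817 for Mir770 and 0.870 for Mir370, and 1 member, Mir493, passed. It split the genes that passed into 15 higher in replicate 2 and 57 in replicate 1, against 32 and 37. Unstranded counts, which have smaller totals, gave a ratio of 1.10 for Mir770 that passed at an adjusted p under 0.05, and levels of 774 CPM for Mir770, 109 CPM for Mir370 and 38.0 CPM for Mir1188. No paired analysis was possible because the labels give a single group. Ratios could not be recomputed without a replicate. Depth limits Mir493, Mir1188 and Mir370, with 44 to 251 counts.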

Other observations

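Beside the 6 genes, 2 other hairpins annotated within Meg3 or Rian on the plus strand had no count in either library. Mir1906-1 lies within Meg3 (mm10, chromosome 12 from 109544541 to 109544620) and shares a stretch of 20 or more bases with an annotated hairpin elsewhere, and Mir1906-2 on the X chromosome also had 0 counts in both libraries. Reads that fit several places were not assigned, so these counts do not show that the miRNA is absent. Gm23912 (109618114 to 109618200) lies just before Mir370 on the same strand, shares no stretch of 20 bases with another annotated hairpin, and had 0 counts in both libraries, where up to 3 counts, or 1.06 and 1.32 CPM, are allowed.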
